A study of Mus musculus with 28 samples.

Results

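Open chromatin regions of mouse embryonic fibroblasts (MEFs) that some but not all reprogramming libraries still held are described here. Overlapping peaks (1 bp or more, chromosomes 1 to 19 and X) of 28 peak lists were merged into regions, and a library was said to call a region when 1 of its peaks overlapped it. The partly kept regions were chosen by these calls alone: 4 of 4 MEF libraries, 3 to 9 of 12 libraries at day 5 and 3 to 9 of 12 at day 10. They number 2047, out of 27904 regions called in 4 of 4 MEF libraries and 109954 regions called in at least 2 libraries. Because the rule used the calls at the 3 time points, the numbers of calling libraries by day are a description and were not tested. The genes and the sequence at these regions were not analysed here, and marker genes of fibroblasts and of other cell types were not used here.

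ATAC-seq, which marks open chromatin by the insertion of adapters with a transposase, was run on 7 groups of 4 libraries. The MEFs are labelled as untreated controls of strain background V6.5 129XBI/6 from embryonic day 12.5. The series design states that they are Tet2-/- and carry doxycycline-inducible OKSM-rtTA, the transgenes that drive reprogramming. The labels of the MEF libraries themselves do not repeat the genotype. At day 5 and day 10 the same kind of cells had received an empty pMXs retrovirus, Tet2-WT or Tet2-E, which the series describes as a stalling mutant. All 6 of these later groups thus lack endogenous Tet2 and were exposed to doxycycline, and they grew on MEF feeder cells treated with Mito-C (genotype not given) in medium with LIF, PD0325901 and CHIR99021. The later cells were sorted on SSEA1-RFP, whereas no isolation is named for the MEFs. Time, sorting, retrovirus, feeders and medium cannot be told apart in a comparison of MEFs with later cells. The labels do not state that the 4 replicates of a group came from separate cultures or animals. A p-value here therefore reflects the spread among these libraries alone, and that spread could be technical.

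TET enzymes oxidise 5-methylcytosine in steps, to 5-hydroxymethylcytosine and then to 5-formylcytosine and 5-carboxylcytosine, and a mutant that stalls separates the early product from the later ones. During reprogramming, enhancers that hold the fibroblast programme open, many of them bound by AP-1 and other somatic factors, are known to close while pluripotency enhancers open. A peak list records a site as called or not called. A site of weak signal can pass the caller in one library and miss in the next.

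The lists held between 27809 and 72140 peaks on the chromosomes used. Relative depth was read from the lists as the background pileup, the number of reads or fragments that the caller took as the genome-wide level at a position, and it ranged from 0.361 to 1.037. The MEF libraries lay at 0.503 ± 0.113 (SD, n = 4), the day 5 libraries at 0.865 ± 0.0732 (n = 12) and the day 10 libraries at 0.522 ± 0.115 (n = 12).

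Of the 2047 regions, 1468 (71.7%) were called in more day 5 than day 10 libraries, 317 (15.5%) in as many and 262 (12.8%) in fewer. A margin of at least 4 libraries toward day 5 was found in 461 regions, and the same margin toward day 10 in 18. The commonest combination was 9 libraries at day 5 with 7 at day 10, which held 92 regions, and 84 regions had 9 at day 5 with 5 at day 10. At the low end, 43 regions were called by 3 libraries at each day. At the high end, 63 were called by 9 at each day. Over both days together, 1181 regions were called in 12 or more of the 24 later libraries and 866 in 6 to 11. The day 5 lists were longer than the day 10 lists (means of 49831 and 37655 peaks) and had more background pileup. Whether the larger number of calls at day 5 comes from this was not tested.

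**Figure D1:**
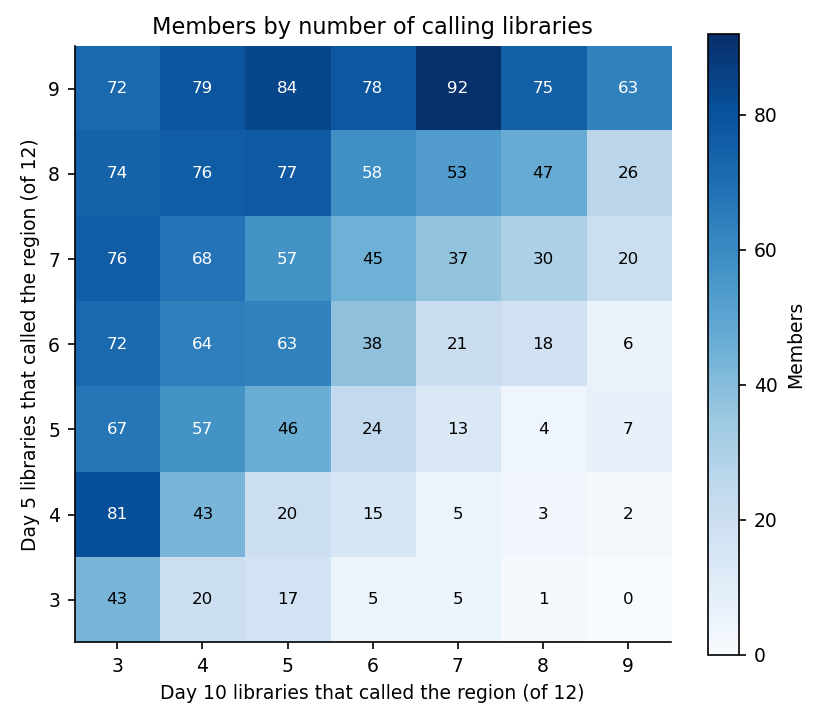
Partly kept regions (called members in the plot) by the number of day 5 libraries (vertical axis, of 12) and day 10 libraries (horizontal axis, of 12) that called them; the number and the shade of each square give the count of regions. The counts are highest along the top row and the left column, with 92 regions at 9 and 7 libraries and none at 3 and 9.

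The limits of the rule cut through a continuous range. Among regions that met every other limit, 91 lay inside the lower day 5 limit with 3 libraries and 58 just outside it with 2. At the upper day 5 limit, 543 lay inside with 9 and 606 outside with 10. For day 10, 485 regions had 3 libraries and 603 had 2, while 124 had 9 and 94 had 10. When lists of equal size were used (27809 peaks each), the rule chose 1097 regions, of which 242 were among the 2047. The median of the authors' fold in MEFs (defined with the peak strengths further on) was 7.73 for the regions with 3 day 10 libraries and 8.17 for those with 2.

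In the day 5 libraries with the empty vector, 44.6% of the partly kept regions were called in replicate 1, 45.5% in replicate 2, 76.6% in replicate 3 and 60.8% in replicate 4. With Tet2-WT at day 5 the shares were 59.0%, 55.2%, 72.2% and 67.3% in replicates 1 to 4, and with Tet2-E they were 52.4%, 61.2%, 55.8% and 45.1%. Replicate 3 of the empty vector was the highest of all 24 later libraries, and the day 5 ranges of the 3 vectors overlapped. At day 10 the empty vector libraries called 51.9%, 44.2%, 42.2% and 31.7%, those with Tet2-WT 53.3%, 61.1%, 36.7% and 29.1%, and those with Tet2-E 61.1%, 49.9%, 32.1% and 24.6%. The day 10 ranges of the vectors overlapped too. Replicate 4 was the lowest library with each of the 3 vectors at day 10, and the highest was replicate 1 or 2. The mean over the 12 libraries was 58.0% ± 10.5 (SD) at day 5 and 43.2% ± 12.5 at day 10.

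The 6840 regions with no MEF call and the same limits of 3 to 9 libraries at each later day served as a comparison. Their shares per library ran from 33.5% to 60.9% at day 5 and from 21.6% to 62.4% at day 10. The partly kept regions were called at a higher share than these regions in 12 of 12 day 5 libraries, by 2.74 to 21.9 percentage points. The day 10 differences ran from -5.02 to 6.00 points. The mean share over the day 5 libraries was 58.0% for the partly kept regions and 49.1% for the regions without a MEF call. That mean only restates how many libraries call the regions within the limits of the rule. A higher share in most day 5 libraries can follow from it alone, so nothing is read from the count of 12. The largest day 5 difference was in Tet2-WT replicate 3. In the empty vector the difference was 17.8 points in replicate 4 and 15.8 in replicate 3.

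A further set shows how these day 5 libraries stand apart. It holds the 3843 regions called in all MEF libraries and in at most 2 of 12 libraries at each later day, but not in 0 at both. They are named nearly closed fibroblast regions here by their calls alone, which do not show closure. At day 5, 27.8% of them were called in empty vector replicate 3, 25.8% in Tet2-WT replicate 3, 20.8% in empty vector replicate 4 and 13.2% in Tet2-WT replicate 4. In the other 8 day 5 libraries the share lay between 3.04% and 9.45%, and in the 12 day 10 libraries between 0.677% and 4.09%. Their background pileups were 0.830, 0.860, 0.881 and 0.844, against a day 5 range of 0.746 to 1.037. Their lists held 60154, 55930, 49642 and 56121 peaks, and the other 8 day 5 lists held 41414 to 52475, so 3 of the 4 were the longest. The 13816 regions without a MEF call with at least 2 later calls but at most 2 of 12 at each day were called at 17.7%, 13.5%, 10.1% and 16.1% in these 4 libraries, and at 5.89% to 13.9% in the other 8. On these regions empty vector replicate 3 and Tet2-WT replicate 4 were the 2 highest day 5 libraries, while the other 2 lay within the range of the rest. The cause of the higher shares was not tested. Without the 3rd and 4th replicates of every day 5 group, 1824 of the 2047 regions (89.1%) still had 2 or more calls among the 6 remaining day 5 libraries, 201 (9.82%) had 1 and 22 (1.07%) had none.

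**Figure D2:**
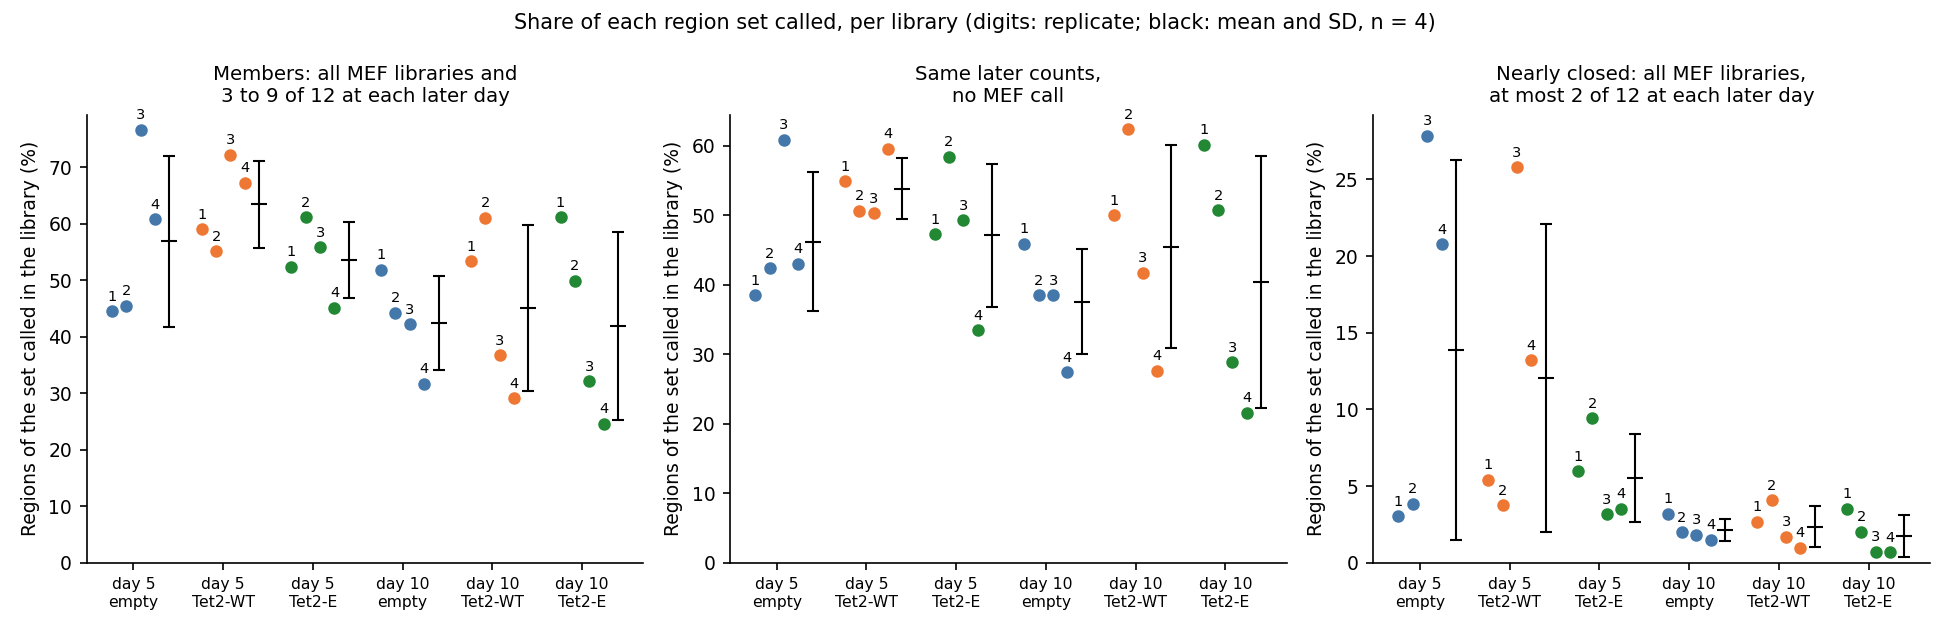
Share of regions called (percent, vertical axis) in each of the 24 later libraries, by day and vector, for the partly kept regions (left, members), the regions with the same later calls and no MEF call (middle) and the nearly closed fibroblast regions (right); digits are replicate numbers and black bars the mean and SD of 4 libraries, and the 3 vertical axes differ in scale. Replicates 3 and 4 of the empty vector and of Tet2-WT at day 5 are the 4 highest points of the right panel, at 13.2% to 27.8%.

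The share of partly kept regions that a library called was set against its background pileup within each day, which the rule did not use. At day 10 the share was higher in deeper libraries, with Pearson's r of 0.870 (permutation p = 0.00017, adjusted p = 0.00034 by Benjamini-Hochberg over 4 relations) and Spearman's rho of 0.902 (permutation p = 0.00019, adjusted p = 0.00038) over 12 libraries. Without the 2 libraries farthest from the median pileup, r was 0.809. With both values centred within vectors, r was 0.919 (permutation p = 2e-05, adjusted p = 4e-05). With lists of equal size, r was 0.557 and did not pass (permutation p = 0.0575, adjusted p = 0.115). The regions without a MEF call had r of 0.901 at day 10 (permutation p = 9e-05, adjusted p = 0.00034) and rho of 0.942 (permutation p = 4e-05, adjusted p = 0.00016), and r was 0.873 without the 2 farthest libraries. With lists of equal size their r was 0.796 and did pass (permutation p = 0.00135, adjusted p = 0.0054). Whether the 2 sets differ in this was not tested.

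The replicate number moved with depth at day 10. Replicate 4 had the lowest background pileup with each vector, at 0.420 (empty), 0.395 (Tet2-WT) and 0.361 (Tet2-E), and also the lowest share of partly kept regions. Replicate 1 had the highest pileup with each vector, at 0.506, 0.619 and 0.768. With both values centred and permuted within replicate numbers, an alternative added after seeing the data, r at day 10 was 0.582 for the partly kept regions (exact permutation p = 0.113, adjusted p = 0.151) and 0.722 for the regions without a MEF call (exact permutation p = 0.0301, adjusted p = 0.12). Spearman's rho was 0.713 (exact permutation p = 0.0401, adjusted p = 0.0802) and 0.769 (exact permutation p = 0.0247, adjusted p = 0.0802). None of these passed after adjustment. With few libraries under each replicate number, such a miss does not show that the share was unrelated to depth. Depth and whatever else the replicate numbers share were not separated at day 10.

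At day 5 no relation over all 12 libraries passed the threshold. The partly kept regions had r of 0.157 (permutation p = 0.635, adjusted p = 0.635) and rho of 0.217 (permutation p = 0.496, adjusted p = 0.496), and r was -0.0678 without the 2 farthest libraries. The regions without a MEF call had r of 0.244 (permutation p = 0.452, adjusted p = 0.603) and rho of 0.287 (permutation p = 0.365, adjusted p = 0.486), and r was -0.0333 without the 2 farthest libraries. Without the day 5 libraries numbered 3 and 4, a choice made after seeing the data, r of the partly kept regions was 0.825 over 6 libraries (exact permutation p = 0.0444, adjusted p = 0.0593). Their rho was 0.886 and did pass (exact permutation p = 0.0333, adjusted p = 0.0333). The regions without a MEF call then had r of 0.769 (exact permutation p = 0.0736, adjusted p = 0.0736). Their rho was also 0.886 (exact permutation p = 0.0333, adjusted p = 0.0333).

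**Figure D3:**
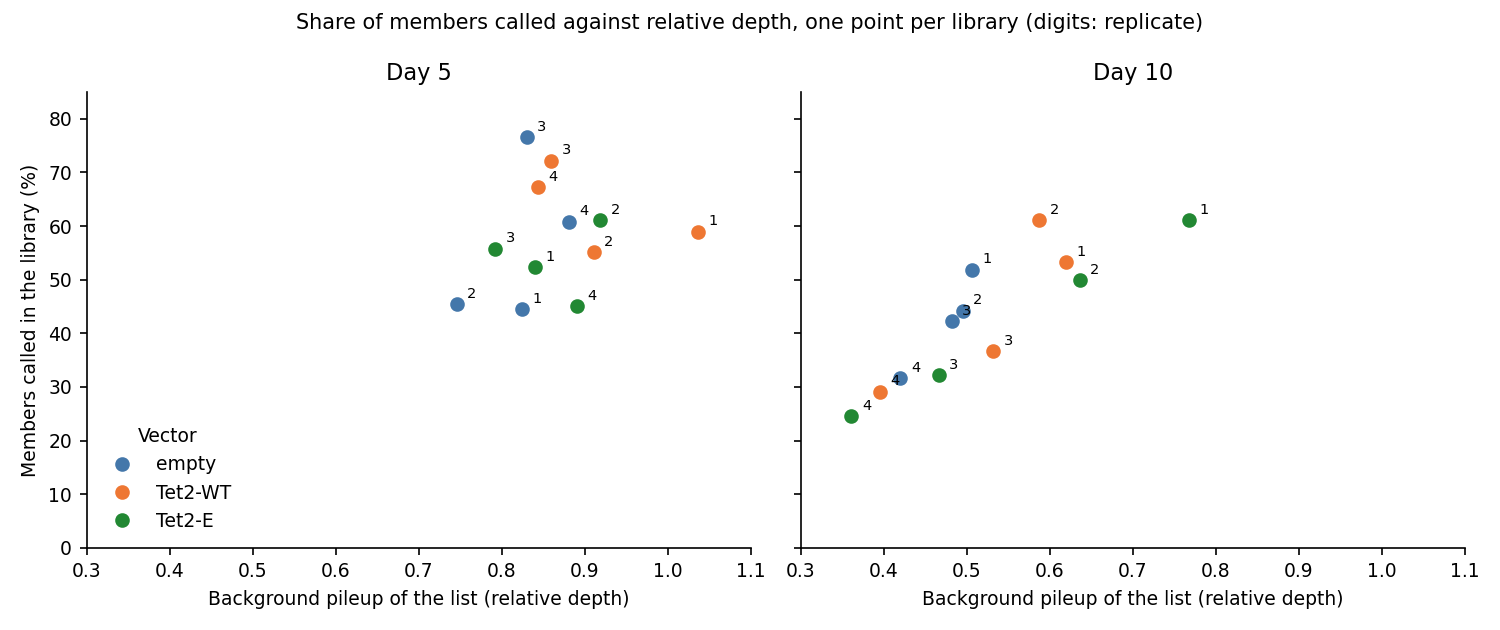
Share of the partly kept regions (members) called in a library (percent, vertical axis) against its background pileup, a measure of relative depth (horizontal axis), at day 5 and day 10; each point is 1 library, coloured by vector and numbered by replicate. At day 10 the share climbs from 24.6% at a pileup of 0.361 to 61.1% at 0.768, whereas at day 5 the highest share, 76.6%, lies at a pileup of 0.830 in the middle of the range.

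The vectors address whether returning wild-type or stalling Tet2 changed how often these fibroblast regions stayed open, and the rule did not use them. Over both days, the mean share of partly kept regions called per library was 49.7% for the empty vector, 54.2% for Tet2-WT and 47.8% for Tet2-E, each over 8 libraries. Tet2-WT exceeded the empty vector by 4.54 percentage points, as 6.52 at day 5 and 2.55 at day 10. A 2-sided exact permutation test with labels permuted within days gave p = 0.438 (adjusted p = 0.656 over 3 pairs). Tet2-E differed from the empty vector by -1.92 points (exact permutation p = 0.751, adjusted p = 0.751) and from Tet2-WT by -6.45 points (exact permutation p = 0.289, adjusted p = 0.656). No pair differed by more than the spread between replicates, although the smallest p this design can give is 0.000408. A p that misses the threshold does not show that the vectors act alike. With lists of equal size Tet2-WT minus the empty vector was -1.28 points. Tet2-E minus Tet2-WT was -0.623 points with lists of equal size and -1.70 without day 5 replicates 3 and 4 of each vector. The sign of the difference between Tet2-E and the empty vector rests on a few libraries: it was 2.60 without replicate 3 of each group, 1.25 without replicate 4 and 5.59 without day 5 replicates 3 and 4.

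Each region was also compared between vectors by a 2-sided exact test of the number of calling libraries, stratified by day. With Benjamini-Hochberg adjustment over all regions tested, 0 partly kept regions passed for any pair, as did 0% of the 74168, 71000 and 73329 regions tested for Tet2-WT against empty, Tet2-E against empty and Tet2-E against Tet2-WT. In a simulation of Tet2-WT against empty on 109954 regions, this test recovered 0% of 200 changed regions and 42.7% of 2000. The changed regions were set to be called in nearly all Tet2-WT libraries and in hardly any empty vector library at both days. Recovery of smaller changes was not measured. At an unadjusted p under 0.05, 37 of 2047 partly kept regions (1.81%) differed between Tet2-WT and empty, against 0.708% of all regions tested. Of these, 30 were called more often with Tet2-WT (0.549% of all tested went that way) and 7 with empty (0.159%). For Tet2-E against empty, 37 of 2044 (1.81%) had an unadjusted p under 0.05, against 0.479% of all regions tested, with 18 toward Tet2-E (0.244%) and 19 toward empty (0.235%). For Tet2-E against Tet2-WT there were 29 of 2047 (1.42%) against 0.551%, of which 26 were called more often with Tet2-WT (0.424%) and 3 with Tet2-E (0.127%). Among the partly called regions without a MEF call, whose later counts obey the same limits, the shares were 2.69%, 1.48% and 1.78% for the 3 pairs. Regions called in an intermediate number of libraries can reach a low p more readily than regions called in few or in nearly all, and nothing about the vectors is read from the higher share among partly kept regions.

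The regions with the largest differences show what such a pattern looks like. Region chr13:37525969-37526562 (mm9, as all coordinates) was called in 0 of 8 libraries with the empty vector, in 4 of 4 day 5 and 3 of 4 day 10 libraries with Tet2-WT, and in 3 of 4 day 5 and 2 of 4 day 10 libraries with Tet2-E. The exact test gave p = 0.00204 for Tet2-WT against empty (adjusted p = 1) and p = 0.0306 for Tet2-E against empty (adjusted p = 1). Its later peaks covered the MEF summit in 6 of 12 calls. Region chr10:66277133-66277640 was called in 1 of 4 empty vector libraries at each day, replicate 3 both times, and in 4 of 4 Tet2-WT libraries at each day (exact p = 0.0102, adjusted p = 1). With Tet2-E it was called in 4 of 4 libraries at day 5 and 2 of 4 at day 10. In region chr17:9224619-9224939 the empty vector again had 0 calls at either day, Tet2-WT had 3 at each day, and Tet2-E had 0 at day 5 and 2 at day 10.

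Calls ran the other way at chr8:123765623-123766174, which 3 of 4 empty vector libraries called at each day (replicates 1, 3 and 4) and no Tet2-WT library did (exact p = 0.0102, adjusted p = 1). Tet2-E libraries called it 3 times at day 5 and once at day 10. Region chr16:26234259-26234528 was called in 4 of 4 empty vector libraries at each day, in 2 of 4 Tet2-E libraries at day 5 and in 0 of 4 at day 10 (exact p = 0.00612 for Tet2-E against empty, adjusted p = 1). At day 10 every empty vector library called it and no Tet2-E library did. Region chr2:107726609-107726835 had 3 and 4 calls with the empty vector at day 5 and day 10, 4 and 2 with Tet2-WT, and 1 and 0 with Tet2-E.

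Tet2-WT and Tet2-E were farthest apart at chr17:24992787-24993373, called in 4 of 4 Tet2-WT libraries at each day and in replicate 2 alone with Tet2-E at each day (exact p = 0.0102, adjusted p = 1). Region chr11:106253238-106253559 had the same counts, with 2 empty vector calls at each day. In the opposite direction, chr2:29480293-29480707 was called with Tet2-E in 4 of 4 libraries at day 5 and 3 of 4 at day 10, with Tet2-WT in 2 of 4 and 0 of 4, and with the empty vector in 3 of 4 and 4 of 4 (exact p = 0.0306 for Tet2-E against Tet2-WT, adjusted p = 1). None of these differences passed adjustment.

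The spread of the calls over the vectors follows in part from the rule, since 3 or more calls a day fall on 3 vectors of 4 libraries each. At day 5, 1840 regions (89.9%) were called by at least 1 library of each of the 3 vectors, and at day 10 this held for 1477 (72.2%). Both held for 1354 regions (66.1%), and 36 (1.76%) had no call with at least 1 of the vectors over both days. Among the 6840 regions without a MEF call the same shares were 78.8%, 66.6%, 54.0% and 3.39%. The 2 sets differ in how many libraries call their regions within the limits, so nothing is read from the difference.

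Different libraries called different regions. The agreement of 2 libraries over the 2047 regions was measured as phi, the correlation of their call status, which is 1 for identical calls and 0 for unrelated ones. It averaged 0.0158 over the 66 pairs of day 5 libraries, 0.0217 over the 66 pairs at day 10 and 0.0340 over the 144 pairs of a day 5 with a day 10 library, with a highest value of 0.132. Between the days, pairs with the same vector averaged 0.0361 and pairs with different vectors 0.0329. The regions without a MEF call averaged 0.0349, 0.0174 and 0.0219 in the same order. The limits of the rule on the number of calling libraries lower the agreement within a day, and these values are a description over regions that share libraries.

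In MEFs the partly kept regions were weaker than most regions called in all MEF libraries. The authors' fold, the ratio of summit pileup plus 1 to local background plus 1 within a library, had a median over regions of 7.43, compared with 8.56 for all 27904 regions in 4 of 4 MEF libraries. The 6382 regions named closed here, which all MEF libraries and no later library called, had a median of 7.96. The 7740 regions called in all 28 libraries had 9.74. By rank within their lists, from 0 for the weakest to 100 for the strongest peak, the medians were 56.5 for the partly kept, 60.9 for the closed and 83.1 for the always called regions. The partly kept regions thus lay below the closed regions by this measure. Their fold varied from 3.80 to 21.2. All these sets are defined by their calls. A demand for calls in all 28 libraries favours strong sites, so the order of the sets is a description.

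The later peaks on these regions lay low in their lists. The rule favours this, since it keeps regions that every MEF library called and some libraries at each later day missed. The values are therefore a description. The median rank of a peak on a partly kept region was 33.2 to 42.9 in the day 5 libraries and 32.3 to 39.5 in the day 10 libraries, against 49.0 to 65.2 in the MEF libraries. The whole-number summit pileup, worked back from each peak's fold and p, gives the depth behind a call. Its median on partly kept regions was 11 to 13 reads or fragments in day 5 libraries and 9 to 11 in day 10 libraries. The weakest 5% of the peaks of the same lists stood at or under 8 to 9 and 6 to 8. In MEF libraries the median was 11 to 17, where the weakest 5% lay at or under 7. A call on these regions at the later days thus rested on few reads above the weakest peaks that the lists hold, and no call does not show that a region was closed.

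**Figure D4:**
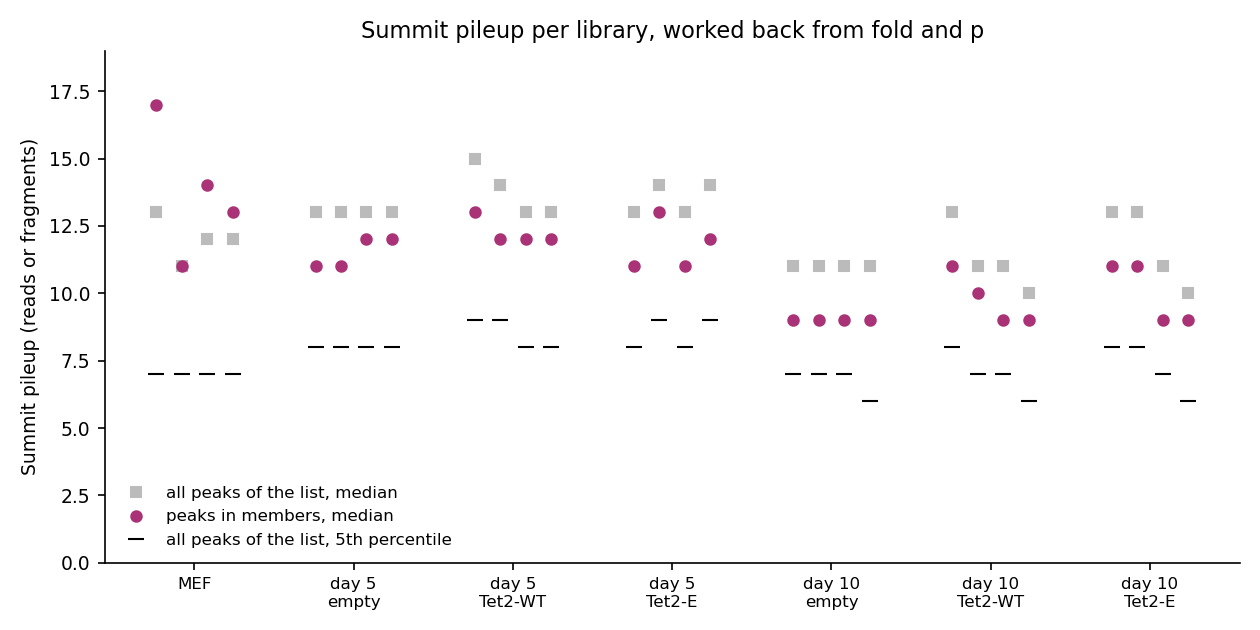
Median summit pileup (reads or fragments, vertical axis) of peaks on the partly kept regions (circles, members) and of all peaks in the list (squares), with the 5th percentile of all peaks (dashes), for each of the 28 libraries by group in replicate order. The circles lie below the squares in every later library and at or above them in the 4 MEF libraries.

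Some of the regions were among the strongest MEF peaks. Region chr3:152476803-152477231 had the highest MEF fold, 21.2, with 18.5 to 22.2 over the 4 libraries and summit pileups of 35 to 57. At day 5 it was called in replicates 2, 3 and 4 of the empty vector, all 4 replicates of Tet2-WT and replicates 1 and 2 of Tet2-E. At day 10 it was called in replicates 1 to 3 of the empty vector and of Tet2-WT and in replicates 1 and 2 of Tet2-E. The 17 later peaks had pileups of 7 to 20, below every MEF value, and 16 of them covered the MEF summit.

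Region chr6:77050950-77051442 had a MEF fold of 20.3 and pileups of 27 to 62 in MEFs. It was called in 9 day 5 libraries and 3 at day 10, with later pileups of 6 to 20, and in no Tet2-E library at day 10. Region chr1:159186714-159187051 (fold 19.4) was called in 9 and 5 libraries, among them all 4 empty vector libraries at day 5 but 1 at day 10. Region chr10:86075022-86075586 (fold 19.1) was also called in 9 and 5, and each of its 14 later peaks covered the MEF summit. In each of these regions the lowest MEF pileup exceeded the highest later one. The choice favours this, since the regions were picked for their MEF fold from a set that some later libraries missed.

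Regions chr13:5836416-5837039 and chr16:44002239-44002515, both of fold 19.1, followed the same course. Each was called in 8 day 5 and 3 day 10 libraries, with all 4 empty vector libraries at day 5 and replicates 3 and 4 of Tet2-WT. MEF pileups were 40 to 58 and 27 to 35, and later pileups were 8 to 16 in both. Region chr16:21976232-21976750 (fold 18.3) was called in 9 and 8 libraries, including all 4 of Tet2-WT at day 10, and chr2:71482077-71482600 (fold 18.2) in 4 at each day. Pileups depend on the depth of each library. The day 5 background was above that of the MEFs in every library, since its lowest value was 0.746 and the highest MEF value 0.66. At day 10 the background, 0.361 to 0.768, overlapped that of the MEFs, 0.394 to 0.66.

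The rule asked only for an overlap with the merged region, so where the later peaks lay inside it is a separate measure. Of all later calls, 74.2% covered the median MEF summit, 77.3% at day 5 and 69.9% at day 10. Among MEF calls the share was 95.9%, and among later calls on the always called regions it was 94.9%. The MEF summit is taken from the MEF peaks themselves, which favours its coverage by MEF calls. Later peaks on the partly kept regions were also narrower. Their median width averaged 128 bp over day 5 libraries and 109 bp over day 10 libraries, against 218.5 bp over MEF libraries. How far the lower later share comes from width was not tested. The median over all later calls of the distance from the later summit to the MEF summit was 35 bp, compared with 35.5 bp for the always called regions. By the median distance over the later calls of each region, the later summit lay within 50 bp in 1417 partly kept regions (69.2%, compared with 70.7% of the always called). It lay beyond 150 bp in 162 (7.91%, compared with 4.38%).

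**Figure D5:**
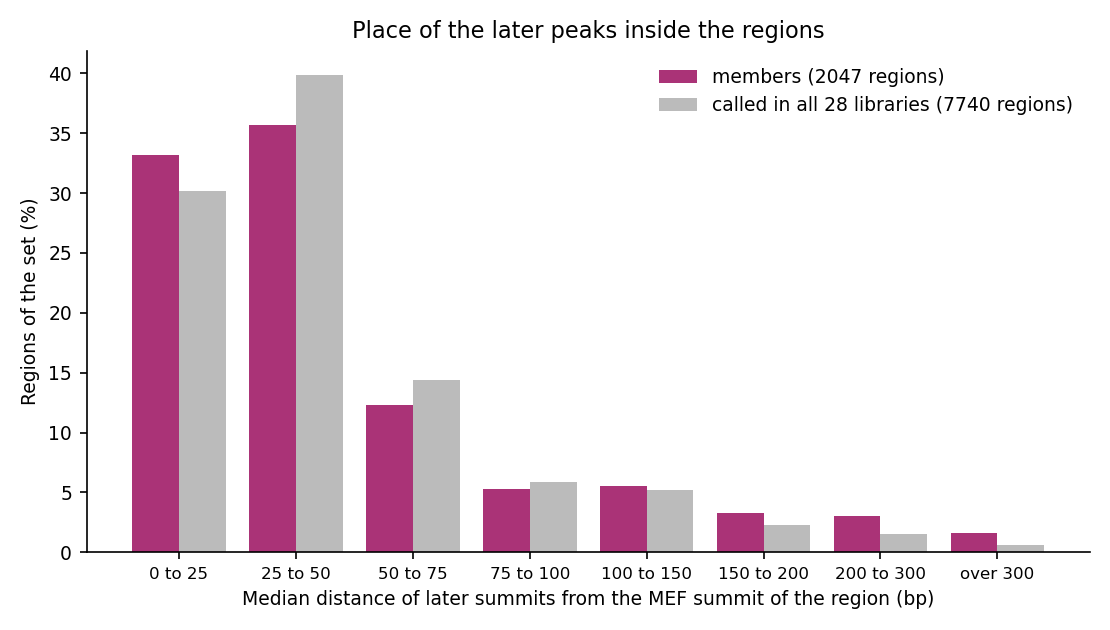
Percent of regions (vertical axis) by the median distance in bp of the later summits from the MEF summit of the region (horizontal axis), for the 2047 partly kept regions (purple, members) and the 7740 regions called in all 28 libraries (grey). Both sets have most regions under 50 bp, and the partly kept regions have the taller bars beyond 100 bp.

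In 503 regions (24.6%) each later call covered the MEF summit, and these had a median width of 296 bp. In 379 (18.5%, median width 603 bp) under 50% of the later calls did so, and in 63 (3.08%, median width 645 bp) none did. In those regions the same merged region was called, but its later peaks stood mostly beside the fibroblast summit. Region chr9:69305540-69306385 is an example. It was called in 9 libraries at each day, none of the 18 later peaks covered the MEF summit, and the later summits lay a median of 329.5 bp away. It was called by all 4 Tet2-E libraries at each day, by 3 and 4 of Tet2-WT, and by 2 and 1 of the empty vector. Region chr13:108259644-108260246 had later summits 270 bp from the MEF summit, and 5 of its 17 later peaks covered it. Its nearest always called region was 8.517 kb away.

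The partly kept regions had a median width of 395 bp, between the closed (334 bp) and the always called regions (731 bp). Width here is that of the merged region and grows with the number of peaks merged. The median MEF peak on them was 215 bp wide, close to 216.5 bp for the closed regions and below 409.5 bp for the always called. A median of 65.7 kb separated a partly kept region from the nearest always called region, compared with 135 kb for closed regions and 77.6 kb for the partly called regions without MEF calls. The nearest closed region was a median of 104 kb away, compared with 103 kb over all regions in 4 of 4 MEF libraries.

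They were found on all 20 chromosomes. The share of regions in 4 of 4 MEF libraries that were partly kept ran from 6.27% on chromosome 1 to 9.36% on chromosome X, with 9.01% on chromosome 7. In windows of 1 Mb, 1196 of the 2365 windows with a region in 4 of 4 MEF libraries held at least 1 partly kept region, 210 held 3 or more and 9 held 6 or more. The fullest windows held 9. One, chr3:107000001-108000000, had 30 regions in 4 of 4 MEF libraries, of which 5 were closed and 7 always called. The other, chr13:21000001-22000000, had 32, of which 0 were closed and 12 always called.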

How the data were processed

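The libraries follow a modified Fast-ATAC workflow, per the labels' protocols. The authors deposited 1 peak list per library. Per the submitters' processing notes, Bowtie2, SAMtools, bedtools, MACS2 and build mm9 were used. The version and settings of each tool were not given in the sources used here. The deposited lists give the authors' fold (a ratio), -log10 p, -log10 q, score and summit offset of each peak. The lowest deposited -log10 q was 2.00, and no 2 lists were identical. Fold and score were used only within a list.

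Computed here were the merging (1 bp, 20 chromosomes, 1272011 peaks), summit pileups, exact permutation tests and region tests with Benjamini-Hochberg adjustment (threshold 0.05), and permutation correlations (100000 resamples; exact under 10 libraries). Pileups and background were solved from fold and p; 100% of pileups came out whole in every library (tolerance 0.0002 in -log10 p). This depth is an inference, not a read total, and depends on the fragment length used. Regions called in at least 2 compared libraries were tested, after a check on simulated data. Python 3.11.15, numpy 2.4.6, pandas 2.3.3, scipy 1.17.1 and matplotlib 3.10.9 were used. Regions named were the 8 with the highest median MEF fold and those from the 4 largest differences in each direction for each pair of vectors. The limits, sets and regions were chosen with earlier results of these data known. Gene lists, markers and motifs were not used here. Alternatives were equal list sizes, a stricter q, 50% coverage of the region, coverage of the MEF summit, a higher minimum of calls, a replicate block and leaving out replicates.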

Additional observations from a re-analysis of the deposited data

How the results depend on the processing

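With equal list sizes (27809 peaks per library) the rule chose 1097 regions, 242 of them among the 2047, and with at least 50% of the region covered it chose 1313, with 67 shared. A -log10 q of at least 5 gave 1647 (900 shared), and calls that cover the MEF summit gave 2076 (1245 shared). The other values below keep the 2047 regions.

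The difference between Tet2-WT and empty in the share called was -1.28 points with equal list sizes. Tet2-E minus empty was 0.385 at the stricter q and 5.59 without the day 5 libraries numbered 3 and 4 (chosen after seeing the data), and Tet2-E minus Tet2-WT was -0.623 with equal list sizes and -1.70 without those libraries. Leaving out 1 replicate number at a time gave 1.63 to 7.71 for Tet2-WT minus empty, -6.12 to 2.60 for Tet2-E minus empty and -8.80 to -4.15 for Tet2-E minus Tet2-WT. No alternative brought a pair past the threshold. In the region tests, 0 partly kept regions passed under any alternative that was run. With fewer libraries or a replicate block this was nearly fixed in advance. The smallest p of the exact test over all regions was 0.005 without 1 replicate number. It was 0.00476 without the day 5 libraries numbered 3 and 4. With the replicate number as a block it was 0.00781, 0.03125 and 0.0156 for the 3 pairs. Nothing is read from these zeros. Without 1 replicate number, 9 to 12, 6 to 14 and 6 to 9 partly kept regions had an unadjusted p under 0.05. These were 0.440% to 0.590%, 0.296% to 0.691% and 0.294% to 0.442% of them. Over all regions tested the shares were 0.134% to 0.222%, 0.0817% to 0.135% and 0.107% to 0.131%. Without the day 5 libraries numbered 3 and 4, the numbers were 8, 14 and 6 (0.393%, 0.691% and 0.295%). The shares over all regions tested were then 0.296%, 0.194% and 0.183%. As in the main test, nothing about the vectors is read from the higher shares.

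With depth, r at day 10 fell to 0.557 with equal list sizes (permutation, adjusted p = 0.115), and at day 5 it was -0.0556. Without 1 replicate number, r was 0.741 to 0.904 at day 10 and -0.0351 to 0.431 at day 5, and for the regions without a MEF call 0.807 to 0.951 and 0.0622 to 0.503. The cause of these shifts was not tested.

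Replicate numbers were not taken as pairs in the main tests. The deviations of same-numbered libraries had a mean correlation of 0.0255 (-0.0139 to 0.0902). For libraries of other numbers it was -0.00848 (-0.0789 to 0.0488). The main tests thus leave out any structure that the replicate numbers share. With the number as a block, adjusted p was 0.293, 0.672 and 0.293 for the 3 pairs in the order of the text (exact permutation). In the region tests, 7, 5 and 4 partly kept regions (0.342%, 0.245% and 0.195%) had an unadjusted p under 0.05, with 0 after adjustment. Over all regions tested the shares were 0.119%, 0.0423% and 0.0764%. Between vectors at day 10, 4, 3 and 3 of 4 libraries correlated best with their own number, and at day 5 the counts were 2, 1 and 2. Centred within numbers, r with depth at day 10 was 0.582 for the partly kept regions and 0.722 for those without a MEF call. Neither passed after adjustment. Read totals were not used here. A missing call on weak sites at low depth does not show closure. The gene, marker, motif and sequence parts were not run.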
